A study of Mus musculus with 32 samples.

Results

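The ERK feedback genes examined here are Spry1, Spry2, Spry4, Spred1, Spred2, Dusp4, Dusp5, Dusp6, Etv4 and Etv5. They were picked by name and are 10 of the 54233 gene rows measured by RNA-seq in 32 samples, and all 10 passed the filter on low values. Samples were taken in 4 replicates after 0, 2, 4, 8, 16, 24, 48 and 96 h, 8 time points in all, from KH2 mouse embryonic stem (ES) cells, labelled C57BL/6. All of them carry the transgene TRE:GATA6-DSREd2, a single engineered line in which doxycycline (Dox) turns on GATA6, a transcription factor of the primitive endoderm, the extra-embryonic lineage that lines the blastocyst cavity. The 0 h cells received no Dox and were grown without serum in 2i medium, which holds the MEK inhibitor PD0325901, a GSK3 inhibitor and LIF. The 2, 4 and 8 h cells were in serum medium with LIF and Dox at 1 µg/ml, and the 16, 24, 48 and 96 h cells received Dox for 12 h and then serum medium without it. From 0 h to any later time the onset of Dox, the arrival of serum and the removal of the MEK inhibitor therefore coincide, and their parts cannot be told apart. Time points from 2 h on share serum and the absence of the inhibitors.

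Receptor tyrosine kinases such as the FGF receptors pass their signal through RAS, RAF and MEK to the ERK kinases, and active ERK switches on genes whose products damp the same pathway. Sprouty proteins and the related Spred proteins act upstream, at the level of the receptor, RAS and RAF. The dual-specificity phosphatases Dusp4, Dusp5 and Dusp6 remove the activating phosphates from ERK itself, Dusp4 and Dusp5 in the nucleus and Dusp6 in the cytoplasm. Etv4 and Etv5 are ETS transcription factors of the Pea3 group, which are classical transcriptional outputs of FGF signalling. In the blastocyst, FGF signalling through ERK favours primitive endoderm over epiblast, and in ES cells blocking MEK keeps the pathway's transcriptional output low.

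Depth was 3190108 to 12301732 reads on genes per sample. Gata6 itself was at 0 to 0.806 normalized counts before induction, 11.4 to 17.2 at 2 h and 1887 to 2219 at 96 h. Per the study's methods the transgene holds the coding sequence alone, so reads of that stretch stem from it as well as from the cell's own Gata6. The summed level of 8 primitive endoderm markers ran from 95.8 to 115 normalized counts at 0 h and from 148790 to 198122 at 96 h, while that of 8 ES cell markers fell in range from 40507 to 46336 at 0 h to 5751 to 7240 at 96 h. Plates were gelatinized, and the 6 fibroblast feeder markers summed to 10.9 to 12.4 at 0 h. The replicates formed sets, replicates 1 and 2 against replicates 3 and 4, at every time point: a chi-square of the counts per degree of freedom had a median of 1.57 over the 16 pairs within a set and 10.9 over the 32 pairs between sets. The study describes its replicate experiments as independent, without saying whether each RNA-seq replicate was a culture of its own, so p-values measure the spread between these samples, which may be technical.

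The stretch just upstream of the start of transcription is shown for Dusp5, Dusp6 and Spry2, 3 of the 4 members whose mean was highest at 2 h. That of Spred1, which also had its highest mean at 2 h, is not shown. Any part of these stretches in how long the genes stayed up was not tested. RefSeq promoter windows (GRCm38.p6) were matched for 7 of the 10 members, and Spry4, Dusp4 and Etv4 were not matched. In Dusp5, chr19:53528895-53529108 on the plus strand, the capitals mark CArG boxes (CC, then 6 bases that are each A or T, then GG), the letters known to be bound by serum response factor, and the 36 bases of the window that the gene annotation places inside the gene are left out. In Dusp6, chr10:99262981-99263230 on the plus strand, and in Spry2, chr14:105896820-105897069 on the minus strand, the capitals mark GGAA or its reverse complement TTCC, the core letters shared by ETS factor sites.
Dusp5: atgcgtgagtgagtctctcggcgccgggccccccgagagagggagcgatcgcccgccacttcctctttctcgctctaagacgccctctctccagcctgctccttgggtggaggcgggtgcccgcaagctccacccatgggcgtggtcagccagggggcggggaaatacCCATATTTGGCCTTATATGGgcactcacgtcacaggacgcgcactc
Dusp6: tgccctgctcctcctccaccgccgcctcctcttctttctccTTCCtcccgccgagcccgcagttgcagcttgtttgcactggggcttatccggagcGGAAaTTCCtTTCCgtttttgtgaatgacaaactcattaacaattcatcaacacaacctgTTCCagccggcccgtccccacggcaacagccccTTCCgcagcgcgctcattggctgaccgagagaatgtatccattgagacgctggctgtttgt
Spry2: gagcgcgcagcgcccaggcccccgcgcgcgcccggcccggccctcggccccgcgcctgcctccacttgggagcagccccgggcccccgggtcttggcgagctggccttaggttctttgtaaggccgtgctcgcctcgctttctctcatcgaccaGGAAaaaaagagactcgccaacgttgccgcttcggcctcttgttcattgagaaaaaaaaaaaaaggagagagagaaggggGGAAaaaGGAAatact

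Over the 250 bases upstream, Dusp5 was the only matched member with a CArG box, and it held 2 of them directly next to each other, beginning 82 and 72 bases before the RefSeq start. Of the 32851 mouse promoters searched on both strands, 1.47% held a CArG box and 6 held 2 or more, those of Ceacam11, Dusp5, Gm33934 and Srf and both promoters of Gm39572. Of these genes only Dusp5 and Srf could be followed. Ceacam11 had means of 0 normalized counts at 0, 2, 4 and 48 h and was not tested, and Gm33934 and Gm39572 were not among the rows measured. Srf, which encodes serum response factor, went from a mean of 266 normalized counts at 0 h to 760 at 2 h and 304 at 4 h (log2 fold change at 2 h 1.49, limma adjusted p = 3.9e-11). The part of serum response factor in the rise of Dusp5 was not tested. The longer ETS letters AGGAAGT lay in 7.69% of promoters, among them those of Dusp5 and Spred2, and CCGGAAGT lay in 2.88% and in no matched member. TGACGT, the core of the cyclic AMP response element, lay in 6.47% of promoters and in Dusp5 and Spred2. The full element TGACGTCA was in 1.55% of promoters and the AP-1 letters TGACTCA in 4.46%, and neither was in a matched member. GGAA by itself is too common to set a promoter apart: 93.4% of promoters and every matched member held it, with 6 copies in Dusp6 and 3 in Spry2. Spred2 held more copies than Dusp6, and Dusp5, in which GGAA is not marked above, held as many as Spry2.

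Within 2 h of the change of medium and the addition of Dox, 7 of the 10 genes rose at a false discovery rate (FDR) under 0.1, and 4 of them, Spry4, Dusp4, Dusp5 and Dusp6, rose at least 4-fold as well. Spred2, Etv4 and Etv5 did not pass the test. Among all 15227 genes tested, 22.2% rose by the first rule and 2.00% by the second. The median log2 fold change was 1.29 over the members and -0.03 over all genes tested. Levels are normalized counts, folds are ratios of mean normalized counts, and log2 fold changes, with their standard errors (SE), are fitted by limma on log2(normalized count + 1), with p-values adjusted over all genes tested. The 4-fold rule of a call applies to the fitted log2 fold change, at least 2 in either direction, and not to the ratio of means. In a bulk sample, fewer cells that express a gene and less RNA per cell cannot be told apart.

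Of the ERK phosphatases, Dusp4 and Dusp5 moved the most of all members. Dusp5, which acts on ERK in the nucleus, was at 33.1, 21.1, 15.3 and 18.9 normalized counts in replicates 1 to 4 at 0 h and at 881, 889, 501 and 514 at 2 h. Every 2 h sample lay above every 0 h sample, and the mean rose 31.5-fold (log2 fold change 4.92, SE 0.23, adjusted p = 7.4e-17). Dusp4, also nuclear, was low in 2i medium, with 22.1, 25.1, 3.22 and 9.44 normalized counts (4 to 37 reads), and reached 245, 271, 338 and 348 at 2 h. That is a rise of 20.1-fold in the mean with no overlap (log2 fold change 4.55, SE 0.36, adjusted p = 2.0e-11). Dusp6, the cytoplasmic phosphatase, went from 487, 436, 69.3 and 75.5 normalized counts to 1979, 1978, 1013 and 978. It rose 5.57-fold in the mean (log2 fold change 2.93, SE 0.46, adjusted p = 6.4e-06), and in both sets the 2 h samples stood above the 0 h samples of that set.

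The Sprouty genes all rose, by different amounts. Spry4 was at 450, 526, 36.3 and 51.0 normalized counts at 0 h and at 1343, 1286, 1111 and 1216 at 2 h (log2 fold change 3.08, SE 0.48, adjusted p = 6.1e-06). The 2 h samples were alike, and the 0 h samples were not. Spry2 was the most even of the members across replicates, at 588, 608, 519 and 546 normalized counts and then 1690, 1680, 1768 and 1807. Its mean rose 3.07-fold (log2 fold change 1.62, SE 0.09, adjusted p = 6.3e-15). Spry1 went from 98.0, 83.6, 47.6 and 51.0 normalized counts to 141, 120, 125 and 138, a rise of 1.87-fold in the mean (log2 fold change 0.96, SE 0.28, adjusted p = 0.0068).

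The Spred genes differed from each other. Spred1 rose from 613, 700, 330 and 368 normalized counts to 928, 960, 809 and 828 (log2 fold change 0.88, SE 0.18, adjusted p = 2.5e-04). Spred2 was at 312, 492, 411 and 457 and then at 332, 356, 423 and 461. Its samples overlapped and its log2 fold change of -0.08 had a 95% interval of -0.35 to 0.19 (adjusted p = 0.68).

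Of the Pea3 factors, neither passed the test at 2 h. Etv5 was at 1902, 2213, 2084 and 2102 normalized counts in 2i medium and at 1511, 1591, 2244 and 2216 at 2 h (log2 fold change -0.16, 95% interval -0.45 to 0.14, adjusted p = 0.42). Etv4 went from 1572, 1523, 380 and 346 to 1509, 1361, 886 and 879, with a pooled log2 fold change of 0.59 (95% interval -0.05 to 1.22, adjusted p = 0.14). Replicates 3 and 4 were both higher at 2 h and replicates 1 and 2 were both lower.

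**Figure D1:**
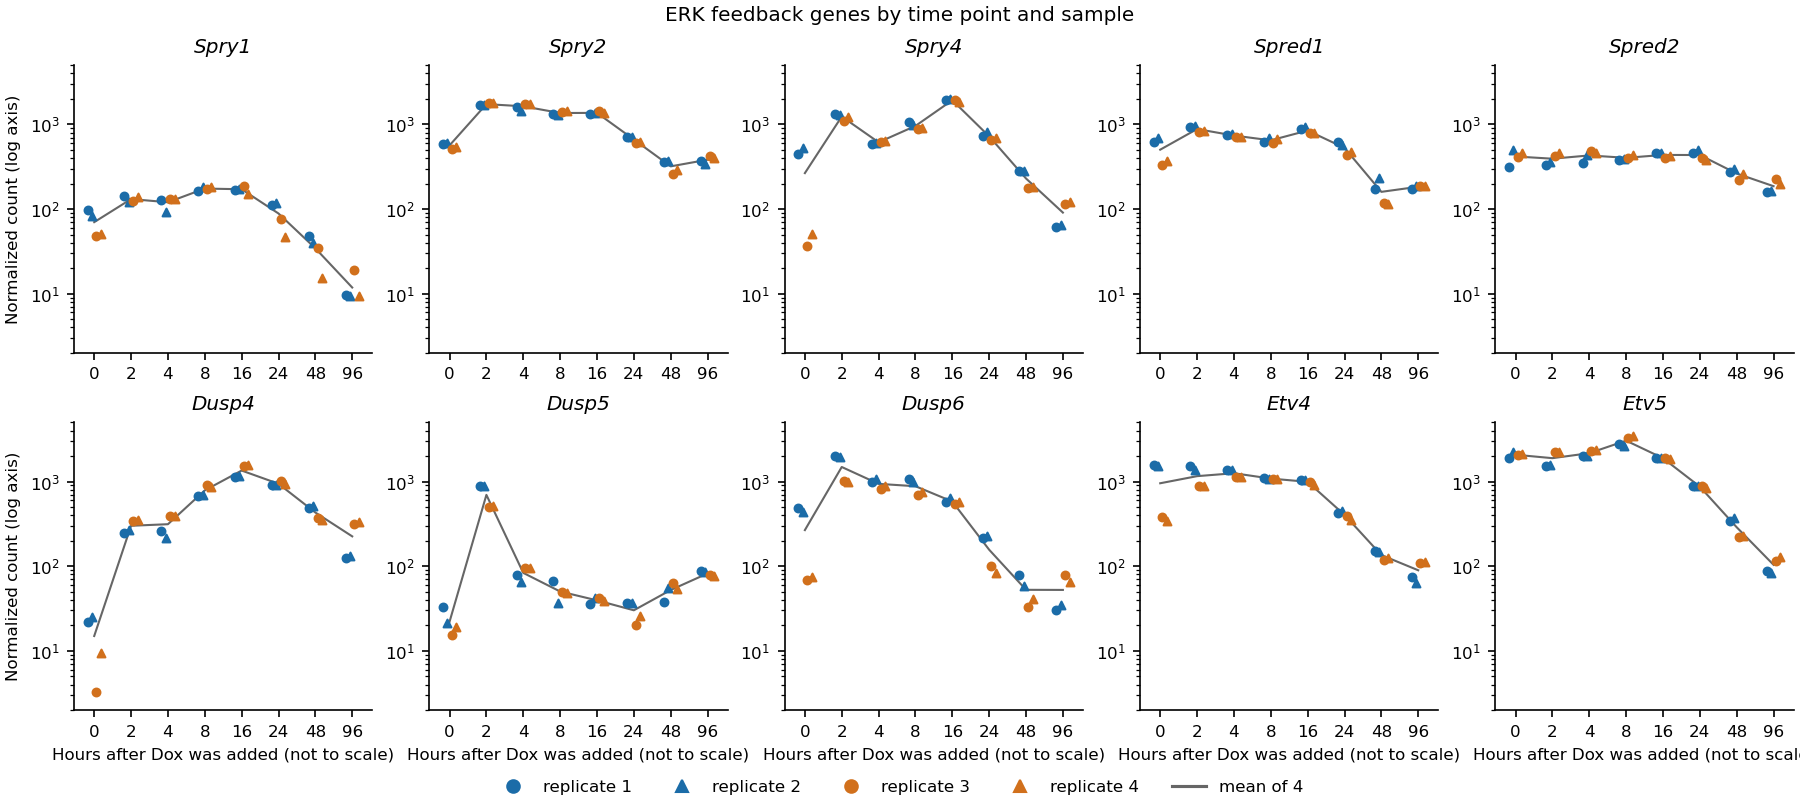
Normalized counts (log axis) of each ERK feedback gene at each time point, with hours spaced evenly and not to scale; points are samples, blue for replicates 1 and 2 and orange for replicates 3 and 4, and lines join the means of 4. The sets stand far apart at 0 h in Spry4, Dusp4, Dusp6 and Etv4, and Dusp5 stands up at 2 h and stands at 35.7 to 41.9 at 16 h. In the limma fit 7 of the 10 genes are lower at 48 h than at 0 h at FDR under 0.1, as are 5686 of the 15227 genes tested.

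In 2i medium several members differed between the replicate sets by more than most genes did. Replicates 1 and 2 were at least 4-fold above replicates 3 and 4, with no overlap, in 3 of the 10 members: Spry4 (log2 difference 3.47), Dusp6 (2.65) and Etv4 (2.09). Of all genes tested, 0.486% showed such a gap in this direction and 1.08% in the other. These differences come from 2 samples a side within 1 time point and carry no test. Dusp4 followed with a log2 difference of 1.89, Spred1 with 0.91 and Spry1 with 0.86. Spry2 (0.17), Etv5 (-0.03) and Spred2 (-0.15) had the smallest differences. From 2 h on no member was 4-fold apart between the sets, and the largest gaps were 1.28 for Dusp6 at 24 h and -1.32 for Dusp4 at 96 h.

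Some genes outside the members were split the same way at 0 h, and those given here are examples. T, the mesoderm factor Brachyury, was at 422, 421, 56.4 and 39.7 normalized counts in replicates 1 to 4. The trophoblast factor Cdx2 was at 40.0, 50.3, 8.87 and 5.67. Myc was at 163, 223, 58.0 and 52.9. The summed level of the 5 mesoderm markers ran from 102 to 454 normalized counts at 0 h, most of it from T: Mixl1, Mesp1 and Tbx6 had means of 6.65, 1.16 and 1.74, and Kdr was lower in replicates 1 and 2 (19.3 and 19.7) than in replicates 3 and 4 (50.8 and 49.1). The 6 trophoblast markers summed to 658 to 720, a sum that did not share the split of Cdx2. The part of these genes in the gap between the sets was not tested, and whether the sets differed in culture or in library preparation is not given in the sources used here.

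**Figure D2:**
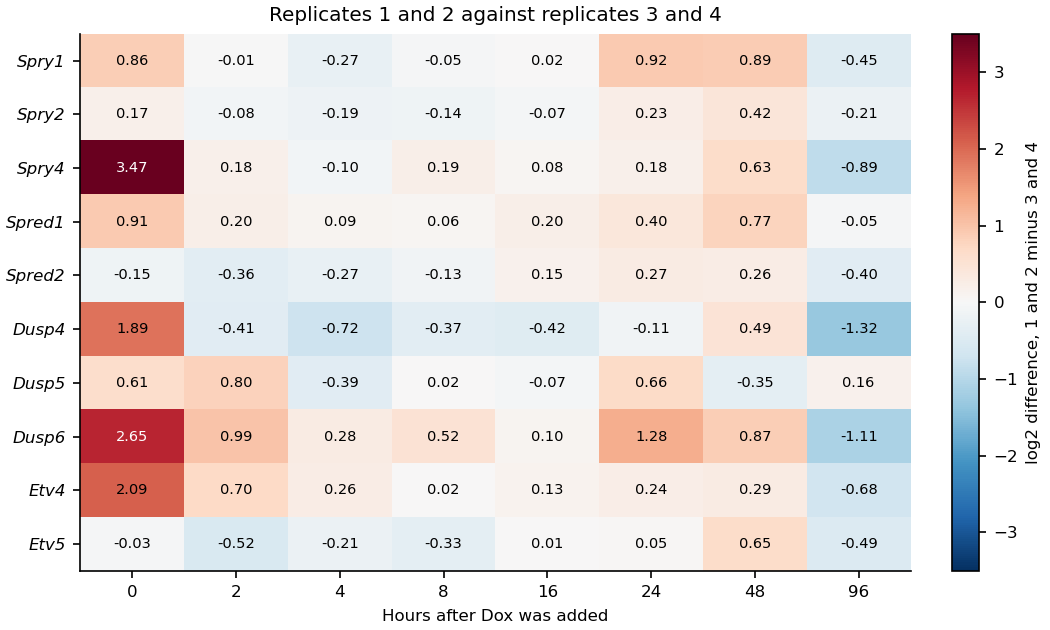
Difference between the replicate sets for each ERK feedback gene at each time point, as the mean log2(normalized count + 1) of replicates 1 and 2 minus that of replicates 3 and 4; red marks higher values in replicates 1 and 2. The largest differences are at 0 h, 3.47 for Spry4 and 2.65 for Dusp6.

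Because the sets stood apart at 0 h, the change by 2 h is given within each. Dusp5 rose by nearly the same amount in both, with log2 fold changes of 5.01 in replicates 1 and 2 and 4.82 in replicates 3 and 4. Spry2 did so as well, with 1.49 and 1.75. Spry4 rose by 1.43 in the first set, under 4-fold, and by 4.72 in the second. Dusp4 rose by 3.40 and 5.69 and Dusp6 by 2.1 and 3.76. Etv4 had a log2 fold change of -0.11 in replicates 1 and 2 (adjusted p = 0.27) and rose by 1.28 in replicates 3 and 4 (adjusted p = 2.8e-13). Etv5 fell by 0.40 in the first set (adjusted p = 9.5e-05) and stood at 0.09 in the second (adjusted p = 0.19). P-values of fits within a set measure only the spread between its 2 samples at each time point. That spread was small, with a median chi-square per degree of freedom of 1.57 within sets and 10.9 between them, and may be technical. The difference between the sets' responses was not tested. With replicates 1 and 2 alone, 3 members passed both the FDR and the 4-fold threshold at 2 h, and with replicates 3 and 4 alone 4 did.

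**Figure D3:**
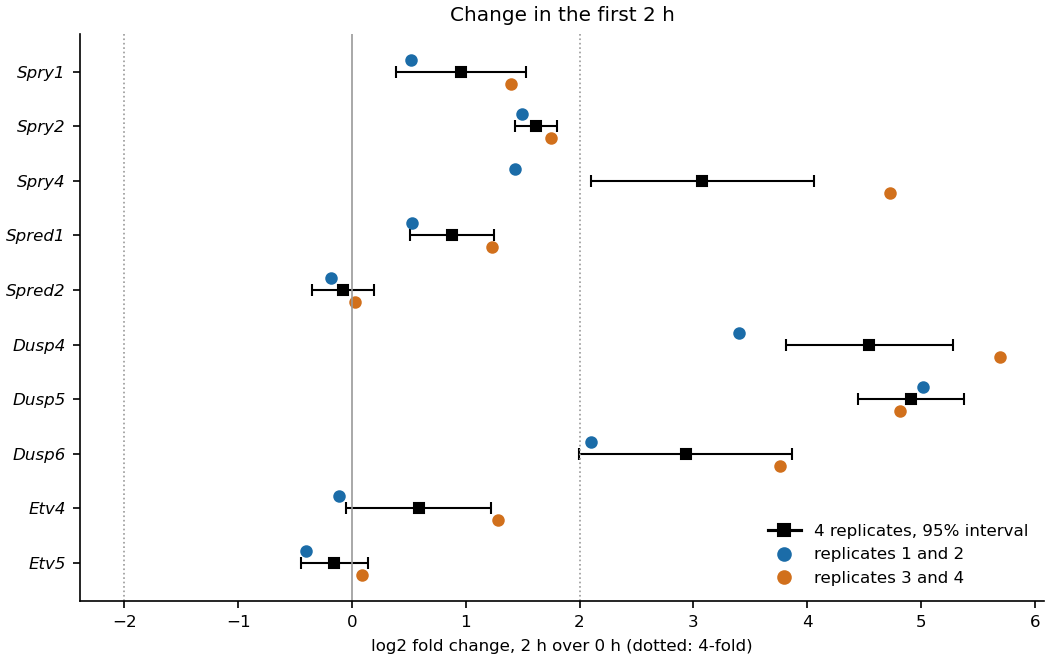
Log2 fold change from 0 to 2 h of each ERK feedback gene; black squares are the fit to 4 replicates with its 95% interval, blue and orange points the fits within replicates 1 and 2 and within replicates 3 and 4, and dotted lines mark 4-fold. Dusp5 and Spry2 have nearly the same value in both sets, whereas Spry4 lies at 1.43 in one and 4.72 in the other.

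Between 2 and 16 h, while Dox was on for the first 12 h, the members parted ways. Dusp5 fell back at once: its samples were at 79.1, 65.4, 94.6 and 94.5 normalized counts at 4 h, each below every 2 h sample, and the mean fell 8.35-fold (log2 fold change -3.01, SE 0.23, adjusted p = 6.1e-11). It was the only member to change at FDR under 0.1 between 2 and 4 h, where 10.9% of all genes tested fell and 13.6% rose by that rule and 0.230% fell at least 4-fold as well. It fell further from 4 to 8 h (log2 fold change -0.73, adjusted p = 0.030), and at 16 h it stood at 35.7 to 41.9 normalized counts. Dusp4 went the other way. It stayed at 213 to 390 normalized counts at 4 h, rose to 680, 691, 908 and 868 at 8 h (log2 fold change from 4 h 1.36, SE 0.36, adjusted p = 0.010) and was highest at 16 h, at 1130, 1177, 1542 and 1552. Its 16 h mean was 90.2-fold that at 0 h, where it had 4 to 37 reads. The log2 fold change was 5.55 within replicates 1 and 2 and 7.86 within replicates 3 and 4. The step of Dusp4 from 8 to 16 h did not pass the test. Dusp6 was highest at 2 h, with a mean of 1487 ± 568 normalized counts (SD, n = 4), and had means of 940, 881 and 581 after 4, 8 and 16 h; none of these single steps passed the test (adjusted p from 0.42 to 0.93).

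Spry4 showed a dip and a second, higher level. Its samples were at 585, 601, 627 and 645 normalized counts at 4 h, below all the 2 h samples, then at 1065, 984, 893 and 896 at 8 h and at 1968, 1996, 1945 and 1816 at 16 h. The groups of these successive times did not overlap, yet the fitted steps did not pass the test (log2 fold changes -1.01, 0.64 and 1.01, adjusted p = 0.15, 0.46 and 0.17). The fit uses 1 estimate of the spread of each gene over all 32 samples, which for Spry4 takes in the wide 0 h group. Within replicates 1 and 2 the 3 steps were -1.15, 0.79 and 0.95, and within replicates 3 and 4 they were -0.87, 0.49 and 1.07. All 6 passed the test there (adjusted p at most 8.2e-04), where the p-values measure only the small spread between the 2 samples of a set. With the set as a block in the limma fit of all samples, the steps from 2 to 4 h and from 8 to 16 h passed (adjusted p = 0.091 and 0.0999) and that from 4 to 8 h did not (adjusted p = 0.35). Spry2 declined slowly from its 2 h peak, with means of 1637, 1364 and 1368 after 4, 8 and 16 h, and the step from 4 to 8 h passed the test (log2 fold change -0.26, adjusted p = 0.055). Spry1 had its highest means at 8 and 16 h, 175 ± 9.28 and 171 ± 15.6 normalized counts (SD, n = 4).

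Spred1 and Spred2 varied little over this stretch. Spred1 had means from 648 to 881 normalized counts at 2, 4, 8 and 16 h, and Spred2 means from 393 to 436. Etv5 rose from a mean of 2166 at 4 h to 3045 at 8 h (log2 fold change 0.49, adjusted p = 0.023) and fell again to 1889 at 16 h (log2 fold change -0.68, adjusted p = 0.0012). Its 8 h samples, at 2768, 2625, 3314 and 3474, stood above all its samples of every other time. Etv4 had means between 993 and 1255 from 2 to 16 h, and its replicate sets came together, from 1509, 1361, 886 and 879 at 2 h to 1106, 1079, 1076 and 1079 at 8 h.

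Against 0 h, the members called higher at FDR under 0.1 and 4-fold in the fit were Spry4, Dusp4 and Dusp6 after 4 h (2.69% of genes tested) and again after 8 h (3.40%), then Spry4 and Dusp4 after 16 h (4.03%) and 24 h (4.85%). By the ratio of means Spry4 was only 2.31-, 3.61- and 2.72-fold its 0 h level after 4, 8 and 24 h. Dusp6 was 3.52- and 3.30-fold after 4 and 8 h. These calls rest on fitted log2 values, in which the low replicates 3 and 4 at 0 h weigh more. Without replicate 3, or without replicate 4, Dusp4 alone was left at 4 and 24 h, as with replicates 1 and 2 alone at 4, 8 and 24 h. With replicates 3 and 4 alone Dusp5 was called too after 4 h (log2 fold change 2.41, and 1.41 in replicates 1 and 2), and Dusp6 after 16 h (2.93, and 0.38 in replicates 1 and 2).

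After 16 h most members fell together. Dox had been given for 12 h only, so the 16 h cells were already without it, as were the 24 h cells. From 16 to 24 h, 7 of the 10 fell at FDR under 0.1 and none rose, where 14.8% of all genes tested fell, and the median log2 fold change was -1.04 over the members and -0.01 over all genes. Dusp6 fell the most, from 572, 633, 549 and 571 normalized counts to 214, 230, 99.5 and 83.2 (log2 fold change -2.02, SE 0.46, adjusted p = 0.0016). It was the only member past 4-fold, as were 0.729% of genes, and it came in under 4-fold without replicate 3 or 4 and in several other settings. Spry4 fell to 37.4% of its 16 h mean, Etv4 to 40.7%, Etv5 to 46.1%, Spry2 to 48.5%, Spry1 to 51.7% and Spred1 to 62.4%. Spred2 (log2 fold change -0.01, adjusted p = 0.97), Dusp4 (-0.51, adjusted p = 0.35) and Dusp5 (-0.42, adjusted p = 0.20) did not pass.

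From 24 to 48 h, 9 of the 10 fell and 1, Dusp5, rose, each at FDR under 0.1, where 27.8% of genes fell and 29.8% rose. Etv5 fell from 888, 882, 875 and 837 normalized counts to 338, 367, 223 and 226 (log2 fold change -1.63, SE 0.14, adjusted p = 1.7e-10). Spred1 fell from 622, 578, 439 and 473 to 174, 230, 119 and 116 (log2 fold change -1.76, SE 0.18, adjusted p = 2.7e-09). Spred2, steady until then, fell from 382 to 499 normalized counts down to 219 to 296 (log2 fold change -0.73, adjusted p = 4.0e-05). Dusp5 rose from 37.2, 36.9, 20.3 and 26.1 to 37.7, 54.6, 63.3 and 53.7 (log2 fold change 0.79, adjusted p = 0.0044).

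**Figure D4:**
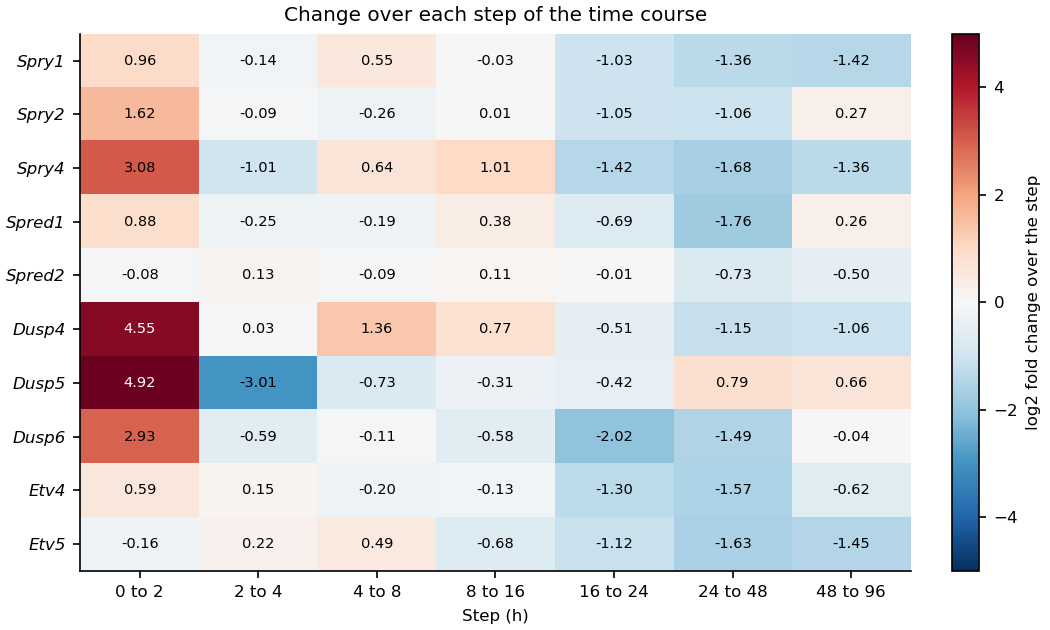
Log2 fold change of each ERK feedback gene over each of the 7 steps between neighbouring time points, fitted on log2(normalized count + 1); red is a rise over the step and blue a fall. The rises gather in the step from 0 to 2 h, up to 4.92 for Dusp5, and the falls in the steps from 16 to 24 h and 24 to 48 h, where Dusp5 is the only one with a rise, 0.79.

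The comparison of 48 h with 2 h sets cells in which primitive endoderm markers were high beside cells in which they were not, both in serum without a MEK inhibitor: the 8 markers summed to 103 to 150 normalized counts at 2 h and 84571 to 156759 at 48 h. Dox was present at 2 h and had been withdrawn by 48 h, and the 2 h cells were sampled soon after the change of medium. The parts of these differences and of the marker change in the result were not tested. Here 8 of the 10 members were lower at FDR under 0.1 and 4-fold, against 7.65% of all genes tested, and the median log2 fold change was -2.49 over the members and -0.03 over all genes. Dusp6 fell 28.3-fold in the mean, from 978 to 1979 normalized counts down to 78.2, 58.4, 32.5 and 41.3 (log2 fold change -4.79, SE 0.46, adjusted p = 1.3e-10). Dusp5 fell 13.3-fold (-3.68, SE 0.23), Etv4 8.56-fold (-3.05, SE 0.31) and Etv5 6.55-fold (-2.72, SE 0.14). Dusp5, Dusp6, Spry2 and Spred1 had their highest mean at 2 h, so their falls start from a peak. Dusp5 already had a mean of 39.5 normalized counts at 16 h, below its 52.3 at 48 h. Spred1 (-2.51, SE 0.18), Spry4 (-2.46, SE 0.48), Spry2 (-2.45, SE 0.09) and Spry1 (-2.01, SE 0.28) lay closer together. Spred2 fell by 0.58 on the log2 scale (adjusted p = 3.3e-04).

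Dusp4 was the exception. Its 48 h samples, at 490, 516, 367 and 351 normalized counts, stood above its 2 h samples, and its log2 fold change of 0.51 had a 95% interval of -0.22 to 1.25 (adjusted p = 0.20). Within replicates 1 and 2 it rose by 0.96 (adjusted p = 2.6e-08), and within replicates 3 and 4 its log2 fold change was 0.07 (adjusted p = 0.79). With replicates 1 and 2 alone 7 members were called lower, since Spry1 came to -1.56, and with replicates 3 and 4 alone 8 were.

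Set against 2i medium, Etv4 and Etv5 at 48 h lay at least 4-fold lower (7.09% of genes) and Dusp4 at least 4-fold higher (8.48% of genes). Dusp4 and Etv5 were called at 48 h within either set. Etv4 was called with replicates 1 and 2 alone (log2 fold change -3.37), as was Dusp6 (-2.75), whereas with replicates 3 and 4 alone Etv4 (-1.57) and Dusp6 (-0.96) came in under 4-fold and Spry4 was called higher (2.04, and -0.80 in replicates 1 and 2). At 96 h Spry1, Etv4 and Etv5 were called lower (10.3% of genes) and Dusp4 higher (9.28% of genes). Etv5 ended lowest against its start, at 88.1, 84.1, 116 and 128 normalized counts, 20.0-fold under its 0 h mean (log2 fold change -4.33, SE 0.14, adjusted p = 1.5e-21). Spry1 was down to 9.55, 9.47, 18.8 and 9.45 normalized counts, 5.92-fold under its start (log2 fold change -2.46, SE 0.28, adjusted p = 3.4e-09). In replicates 1 and 2 its log2 fold change was -3.12, and in replicates 3 and 4 it was -1.80, under 4-fold. Dusp4 was still at 124, 133, 313 and 332, well above its 3.22 to 25.1 at 0 h (log2 fold change 4.00, SE 0.36, adjusted p = 2.5e-11). Dusp5 was at 87.0, 86.2, 77.8 and 77.5, above all its 0 h samples (log2 fold change 1.90, SE 0.23, adjusted p = 1.1e-08), with 1.68 in replicates 1 and 2 and 2.13, past 4-fold, in replicates 3 and 4.

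For the genes with split sets at 0 h, the size of the difference at 96 h varied with the set, and for Spry4 the direction did. With replicates 1 and 2 alone 6 members were called at 96 h, Dusp6 and Spry4 in addition, and with replicates 3 and 4 alone 3 were, Dusp4, Dusp5 and Etv5. Spry4, at 61.5, 65.2, 116 and 121 normalized counts, had log2 fold changes against 0 h of -2.92 in replicates 1 and 2 and 1.44 in replicates 3 and 4, with a pooled value of -0.74 (adjusted p = 0.17). Dusp6, at 30.8, 34.7, 79.1 and 65.2, had log2 fold changes of -3.78 and -0.01 in the sets and fell by 1.89 in the pooled fit (adjusted p = 5.1e-04). Etv4 was lower in both sets, with -4.48 and -1.71, the latter under 4-fold.

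From 48 to 96 h the members moved less together, with 6 falling and 2 rising at FDR under 0.1, where 27.2% of genes fell and 27.3% rose. Etv5 fell again (log2 fold change -1.45, adjusted p = 1.8e-09), as did Spry1 (-1.42), Spry4 (-1.36), Dusp4 (-1.06), Etv4 (-0.62) and Spred2 (-0.50). Spry2 rose by 0.27 (adjusted p = 0.014) and Dusp5 by 0.66 (adjusted p = 0.017). Spred1 (0.26, adjusted p = 0.25) and Dusp6 (-0.04, adjusted p = 0.96) did not pass. Here too the sets differed: replicates 1 and 2 were below replicates 3 and 4 at 96 h in Dusp4, Dusp6 and Spry4, with log2 differences of -1.32, -1.11 and -0.89.

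Per kilobase of exon, the members could be compared with each other as levels. At 0 h Etv5 had 506 normalized counts per kb, Etv4 308, Spry2 271, Spred2 90.5, Dusp6 85.3, Spred1 74.1, Spry4 55.9, Spry1 24.1, Dusp5 8.94 and Dusp4 5.46. At 2 h Spry2 led with 832, ahead of Dusp6 with 475, Etv5 with 461, Etv4 with 373 and Dusp5 with 282. At 16 h the order was Spry2 with 656, Dusp4 with 493, Etv5 with 460 and Spry4 with 406. At 96 h Spry2 with 183 and Dusp4 with 82.2 stood above the others, which lay between 4.07 for Spry1 and 40.3 for Spred2. Neighbours in these orders whose samples overlap, such as Dusp6 and Etv5 at 2 h, are not separated by them.

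The rest of the pathway, taken from lists of genes known for their roles, did not move as one. Of all genes tested, 22.2% rose and 22.6% fell at FDR under 0.1 from 0 to 2 h, and 36.9% rose and 38.3% fell from 2 to 48 h. Of 22 genes of the cascade itself, among them the adaptors Frs2 and Grb2, 11 rose and 5 fell at 2 h at FDR under 0.1, none of them by 4-fold, with a median log2 fold change of 0.16. From 2 to 48 h, 10 rose and 7 fell, and only Mapk3, which encodes ERK1, passed 4-fold, from a mean of 327 normalized counts to 1616 (log2 fold change 2.30). Of 15 other negative regulators of receptor and RAS signalling, 7 rose and 7 fell at 2 h. The one past 4-fold was Errfi1, an inhibitor of the EGF receptor, from 172 to 2118 (3.58), and from 2 to 48 h it was lower again (-3.21). Lrig3 rose by 2.09 over the latter stretch.

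Among 10 paralogues of the members, 6 rose and 2 fell at 2 h. Dusp2 rose by 4.04 on the log2 scale, from a mean of 1.45 to 36.8 normalized counts, Dusp16 by 2.19 and Spred3 by 2.15. Dusp8, with at most 2 reads in any library at 0 h, reached a mean of 10.9, and its fitted change of 2.28 depends on the pseudocount. From 2 to 48 h, the genes that fell past 4-fold were Dusp1 (-3.54), Dusp2 (-3.21), Etv1 (-3.01) and Spred3 (-2.71), whereas the Dusp6 relative Dusp9 rose from 161 to 4013 normalized counts (4.68). Spry3 had at most 1 read in any library at 2 h and a mean of 150 normalized counts at 48 h, so its fitted change of 6.48 depends on the pseudocount. By 96 h Dusp9 was at a mean of 6823. In both comparisons all 10 paralogues were tested, and from 2 to 48 h 5 rose and 5 fell.

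Of 16 other transcripts known to follow ERK, 11 rose and 2 fell at 2 h, with a median log2 fold change of 1.62. Fosl1, an AP-1 subunit, rose by 6.04, Plaur, the urokinase receptor, by 6.03, Phlda1 by 5.63 and Egr1, an immediate early zinc finger factor, by 4.58. From 2 to 48 h none rose and 12 fell, 9 of them 4-fold, with a median of -2.15, led by Emp1 (-7.19), Fosl1 (-5.98), Egr1 (-5.36) and Ccnd1 (-4.39). Among 7 ETS factors downstream of ERK, 6 rose and 1 fell at 2 h, and Ets1 was the one past 4-fold, rising by 3.37 at 2 h and by a further 3.66 from 2 to 48 h.

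**Figure D5:**
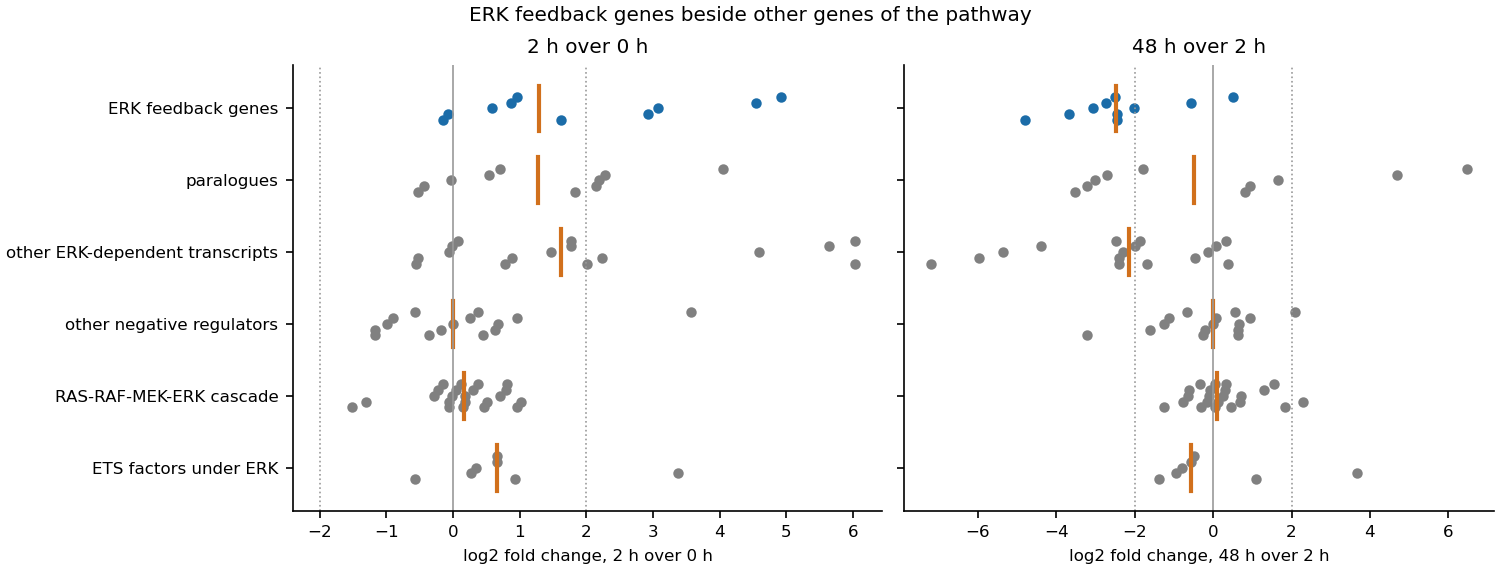
Log2 fold changes at 2 h over 0 h and at 48 h over 2 h of the ERK feedback genes (blue) and of 5 other lists (grey), with the median of each list in orange and dotted lines at 4-fold. At 48 h over 2 h the medians of the ERK feedback genes and of the other ERK-dependent transcripts lie at -2.49 and -2.15, and that of the cascade at 0.09.

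Most of the members had similar time courses, and Dusp4 and Dusp5 did not share them. Over the 8 time point means of log2(normalized count + 1), Pearson's r was 0.99 between Spry2 and Dusp6 and 0.98 between Etv4 and Etv5, whereas Dusp4 had r of at most 0.31 with every other member but Spry4 (0.66), and Dusp5 had at most 0.44, with Dusp6. These values are descriptions over 8 points from the same 32 libraries. Outside the members, among 9964 genes considered, the closest to Spry4 was Myc (r = 0.98), with means of 512, 319, 434 and 734 after 2, 4, 8 and 16 h. The closest to Dusp5 were Erbin, Mxd1 and Rrad (0.98, 0.98 and 0.97), to Dusp4 Icosl (0.98), to Dusp6 Ino80d (0.99), to Spry1 Ralgapa1 and Dppa4 (0.99 each), to Spry2 G3bp2 (0.98), to Spred1 Tut1 (0.99), to Spred2 Tdrd12 (0.99), to Etv4 Txlng (0.99) and to Etv5 Camk1d (1.00).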

How the data were processed

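Libraries were made from poly(A) RNA with a stranded kit and read as single ends of 50 bases. Adapters were removed with cutadapt 2.7, alignment to GRCm38.p6 used HISAT2 2.1.0, and the authors counted reads on GENCODE genes with featureCounts (Subread 1.6.4), per the study's methods and the submitters' processing notes. The authors deposited log2 values, the variance-stabilizing transform of gene counts from DESeq2. Inverting the transform from the value of a gene without reads gave normalized counts, and dividing by each sample's step gave whole reads (100% of values within 1e-06 of a whole number). 3190108 to 12301732 reads per sample limit the precision of low genes such as Dusp4 at 0 h, and intervals cover the spread between samples only.

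The 15227 genes that reached 10 normalized counts in 4 or more samples entered a limma 3.58.1 fit (R 4.3.3) of log2(normalized count + 1) over all 32 samples, with a mean-variance trend and Benjamini-Hochberg adjustment for each of 14 comparisons. A call needs FDR under 0.1 and a 4-fold change. The fit was tested on simulated data, in which samples were drawn independently and formed no replicate sets. That test cannot show how p-values behave where the sets differ. Lengths and gene coordinates come from GENCODE M21 on the same build. Of each list, genes past the call at 2 h over 0 h or 48 h over 2 h are named, at most 4 in each direction, and for each member the genes with the most similar time course. The members and lists were chosen with earlier results of these data known. Alternatives covered the pseudocount, filter, scaling, blocks, samples fitted, deposited values and voom; fits within each replicate set were chosen after seeing the data.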

Additional observations from a re-analysis of the deposited data

Results flagged for a closer look

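In 3 of the 80 groups of 4 samples (10 members at 8 time points) the gap between the highest or lowest sample and its nearest neighbour took up more of the group's range than Dixon's 95% critical value; chance gives about 1 in 20 such groups. Spry1 at 4 h had replicate 2 at 92.1 normalized counts, under 128 to 132 in the others, from the library with the fewest reads. Spry1 at 96 h had replicate 3 at 18.8, above 9.45 to 9.55 in the others. Etv4 at 8 h had replicate 1 at 1106, above 1076 to 1079 in the others.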

How the results depend on the processing

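The number of members called kept within 1.5 times of its value in every other setting than those named here. Without the fold change threshold it was 7, 8, 8, 7, 6, 9 and 9 for 2, 4, 8, 16, 24, 48 and 96 h over 0 h, and over the steps 4 for 8 h over 4 h, 1 for 16 h over 8 h, 7 for 24 h over 16 h, 10 for 48 h over 24 h and 8 for 96 h over 48 h. By FDR alone, 3373 of the 15227 genes tested were higher and 3448 lower for 2 h over 0 h. These numbers were 3765 and 3618 for 4 h, 4011 and 3469 for 8 h, 4265 and 3850 for 16 h. They grew to 4744 and 4670 for 24 h, 5497 and 5686 for 48 h, 5779 and 5858 for 96 h. The late member counts have to be read beside these. With replicates 1 and 2 alone the number of members called was 1 at 4 h, 8 h and 24 h over 0 h, 0 for 24 h over 16 h and 3 for 96 h over 48 h. For 24 h over 16 h it was 0 with a pseudocount of 5, with set means, on the deposited values and with voom. Leaving out each replicate in turn gave 1 to 4 members at 4 h over 0 h, 1 to 2 at 24 h over 0 h and 0 to 1 for 24 h over 16 h; the lower values came without replicate 3 or 4. Dusp6 joined the members called against 0 h after 16 h without replicate 1 or 2, and after 48 h and 96 h without replicate 3 or 4, and Dusp5 after 96 h without replicate 1.

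Signs of single members turned in fits within a set. With replicates 1 and 2 alone the log2 fold change was -0.11 for Etv4 at 2 h over 0 h, -0.12 for Dusp4 and -0.066 for Etv4 at 4 h over 2 h, 0.0080 for Dusp6 at 8 h over 4 h, 0.0056 for Spry1 at 16 h over 8 h, 0.052 for Spred2 at 24 h over 16 h (also 0.0075 with voom), and -0.043 for Spry2 and -0.15 for Spred1 at 96 h over 48 h. With replicates 3 and 4 alone it was 0.028 for Spred2 and 0.092 for Etv5 at 2 h over 0 h, 1.44 for Spry4 at 96 h over 0 h, -0.029 for Spry2 and -0.028 for Spred2 at 16 h over 8 h, and 0.95 for Dusp6 at 96 h over 48 h. Leaving out 1 replicate gave -1.54 to 0.0082 for Spry4 at 96 h over 0 h, -0.14 to 0.049 for Spred2 at 2 h over 0 h, -0.053 to 0.034 for Spred2 at 24 h over 16 h, -0.030 to 0.15 for Dusp4 at 4 h over 2 h, -0.47 to 0.39 for Dusp6 at 96 h over 48 h, -0.082 to 0.047 for Spry1 and -0.020 to 0.033 for Spry2 at 16 h over 8 h. The cause was not tested.

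With the replicate number as a block (replicate block), 4 members were called at 2 h over 0 h and 8 at 48 h over 2 h, as without it, and of 90 single fold changes 2 gained significance, Etv4 at 2 h over 0 h (adjusted p = 0.094 by limma) and Spred1 at 16 h over 8 h (adjusted p = 0.041), and none lost it. With the set as a block 4 of the 90 gained it, Spry4 at 4 h over 2 h (adjusted p = 0.091) and at 16 h over 8 h (0.0999), Spred1 at 16 h over 8 h (0.036) and Etv4 at 2 h over 0 h (0.079), and none lost it. With set means, 2 values a time point, 18 of the 90 lost it, none gained it and none turned. Only fold changes that had passed could lose it, so the share lost among those is larger than 18 of 90. Over these comparisons fewer members therefore passed at FDR under 0.1 with set means than in the fit to 4 replicates. Same-numbered samples deviated together no more (mean correlation 0.20, lowest -0.04) than samples with the other number of their set (0.20), so the numbers showed no pairing of samples across time points. Deviations were taken from the mean of the 4 samples of each time point. That ties the mean correlation between samples of different sets (-0.20) to the values within sets, and it adds nothing to them.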
